A study of Rattus norvegicus with 24 samples.

Results

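The urethra of saline-injected rats was compared between 3 days (3d) and 7 days (7d) after simulated vaginal delivery (SVD), as the course of the injured tissue with no cells given. The comparison holds 8 of the 24 samples of the series, 4 at 3d (replicates 6, 8, 9 and 10) and 4 at 7d (replicates 1, 2, 3 and 5), and the 15726 of 32883 listed genes whose mean over these 8 samples was at least 2 normalized gene counts. Every comparison was made with all 8 samples and again without 3d replicate 6. The animals were wild-type, virgin, female Sprague-Dawley rats 12 weeks of age, in which SVD was a pudendal nerve crush together with vaginal distension under anaesthesia. All received saline into the aorta 1 h after the injury, through the same operation as the cell-treated rats, so that injury, laparotomy and injection are shared by both times. The other 16 urethras, at the same times, received allogeneic mesoangioblasts (MABsallo), which are vessel-associated muscle progenitors, or the same cells expressing VEGF (MABsallo-VEGF). The labels of MABsallo-VEGF replicates 6 and 7 at 7d also carry the word recovery. Urethras of uninjured rats were not analysed here, and a change between 3d and 7d therefore says nothing of the level before injury.

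The urethra is a tube of urothelium on a collagen-rich lamina propria, wrapped by smooth muscle and by the striated external urethral sphincter, whose motor axons run in the pudendal nerve. After a crush, axons beyond the lesion degenerate, Schwann cells dedifferentiate and neurons that regrow their axons switch on genes of the growth cone. Stretched tissue meanwhile clears debris, lays down matrix, divides and rebuilds its epithelium and muscle. Each sample was a piece of whole urethra, so fewer cells of a type and less RNA per cell cannot be told apart.

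The 3d libraries of replicates 6 and 8 stood apart from the others. Replicate 8 held few reads of urothelial genes, with a summed normalized count over 15 urothelial markers of 2469 against 19648, 27750 and 25562 in replicates 6, 9 and 10, and few of smooth muscle genes (54902 against 188914, 334098 and 257644). The same library held the most reads of Schwann cell and myelin genes (57689 against 13002, 14495 and 13538) and the highest mitochondrial share (17.2% of reads, the others 11.1% to 11.7%). Replicate 6 had the lowest sum of the erythroid genes (40414 against 369915 to 576747) and the highest of the genes of DNA methylation and histone modification (59508 against 30044 to 47081). Defining markers of smooth muscle (Myh11) and urothelium (Upk3a) were nevertheless read in all 8 libraries. Pearson's r of log2 counts between 3d libraries was 0.946 for replicates 9 and 10 and 0.830 to 0.905 for the pairs with replicate 6 or 8, while the 7d pairs lay between 0.927 and 0.953. Total reads were 4851797 to 5249467 at 3d and 5244129 to 6986159 at 7d, and the difference of the means was not past the threshold (p = 0.0571, two-sided exact permutation test, for which the smallest possible p is 0.0286). The plot of gene lists by sample shows where the libraries differ.

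**Figure D1:**
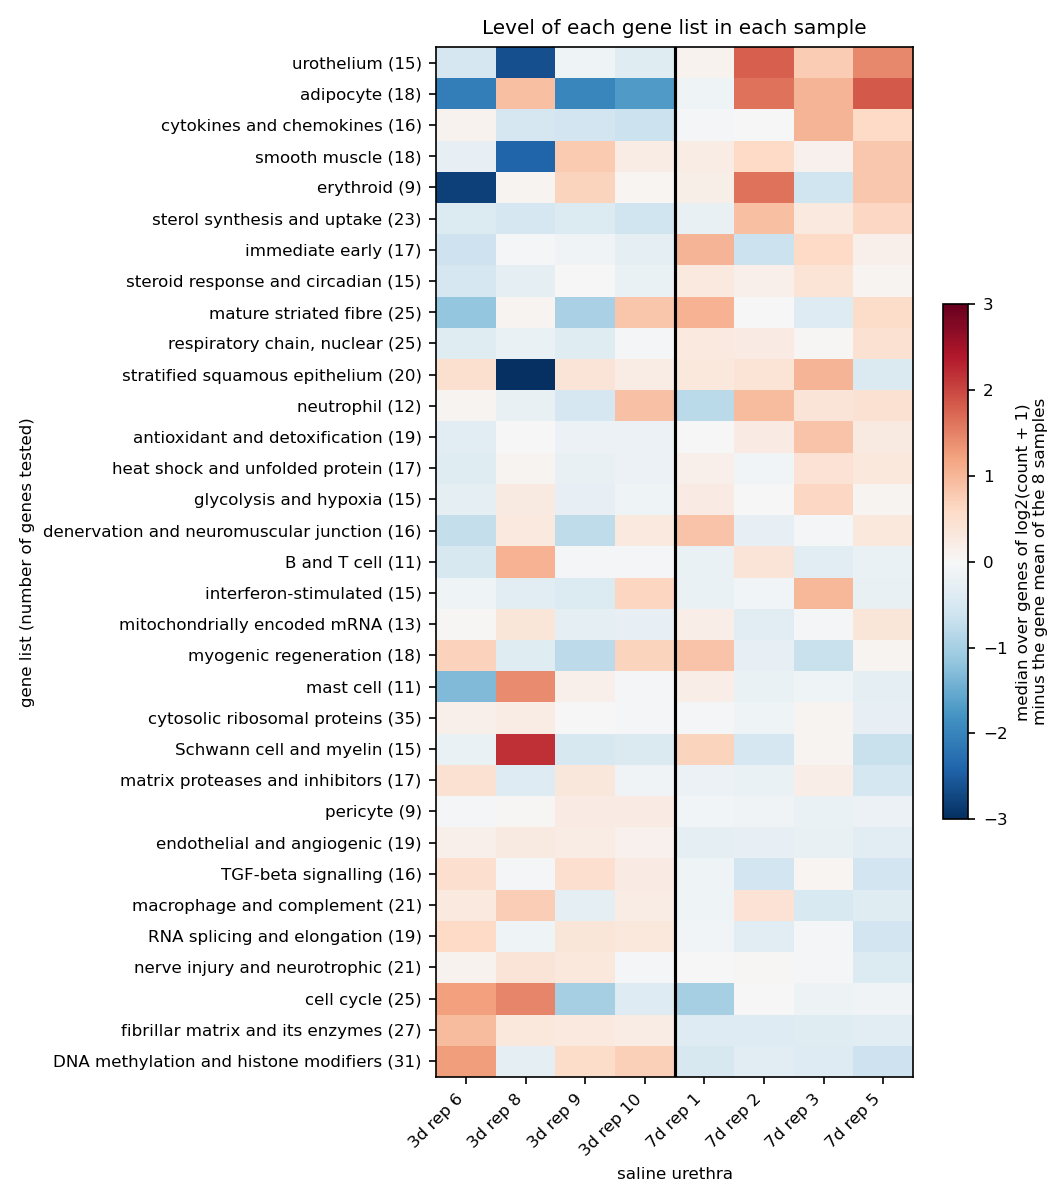
Level of 33 gene lists (rows, with the number of genes tested) in each saline urethra (columns). Colour gives the median over the genes of a list of log2(normalized count + 1) minus that gene's mean over the 8 samples. The 3d column of replicate 8 is low for urothelium, squamous epithelium and smooth muscle and high for Schwann cell genes, and that of replicate 6 is low for erythroid genes.

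With all 8 samples, 545 genes differed between the times (3.47% of the genes tested, limma, log2 fold change above 1 or below -1 at an adjusted p under 0.05), of which 105 were higher at 7d (0.668%) and 440 were lower (2.8%). The groups did not overlap in 84 of the 105 and in 269 of the 440, against 5.11% and 5.87% of all genes tested that were higher or lower at 7d without overlap. A higher share among called genes follows from calling them on these same samples and is not separate support. The counts of list members below are to be read beside these shares of all genes tested. Without 3d replicate 6, 23 genes passed (0.146%), 10 of them higher at 7d (0.0636%) and 13 lower (0.0827%). All 23 were also among the 545, and in all 23 the 8 samples fell into separate ranges. A difference in saline called below that is not one of these 23 was lost without replicate 6. The 545 genes kept their sign without replicate 6, and 504 of them kept a log2 fold change beyond 1. The fitted change of all genes had a median of -0.04, and 47.3% of all genes were higher at 7d. When only the 8 saline samples were fitted, without the spread of the 16 cell-treated ones, no gene passed (0 by limma with 3093 at an unadjusted p below 0.05, and 0 by edgeR with 3484). The calls below thus rest on a spread that was estimated over all 24 samples.

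**Figure D2:**
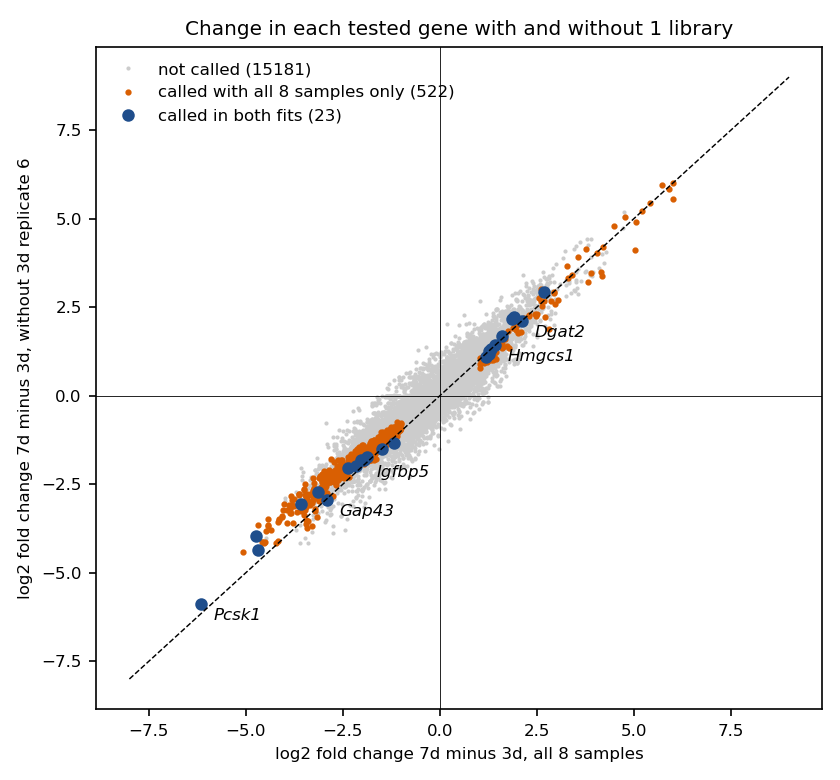
The log2 fold change (7d minus 3d) of each of the 15726 genes with all 8 samples (x axis) and without 3d replicate 6 (y axis). The 545 genes called with all 8 samples lie on the same side of 0 on both axes, and the 23 called in both fits are drawn large. The dashed line marks equal values.

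Gap43, Pcsk1, Prph and Sox2, genes of growing axons, neurons and injured Schwann cells, fell between 3d and 7d. Which cells of the urethra held these RNAs was not tested. Gap43, which encodes the growth-cone protein GAP-43, had normalized counts of 1567, 1866, 1779.7 and 1408 at 3d and 429.6, 204, 66.98 and 384 at 7d, in the order of replicates 6, 8, 9 and 10 and of 1, 2, 3 and 5 that is kept throughout. The 4 values at 3d were alike and each was above 3 times the highest 7d value. Its log2 fold change was -2.91 ± 0.44, adjusted p = 0.00248 with all samples (± standard error) and -2.93 ± 0.48, adjusted p = 0.0197 without replicate 6. Pcsk1, a prohormone convertase of neurons and endocrine cells, had counts of 124, 23.5, 104 and 77.4 at 3d and 0, 0, 0 and 0 at 7d, so that no read was found at 7d and the level was at least 8.86-fold lower (adjusted p = 0.000206, and adjusted p = 0.00246 without replicate 6). Prph, which encodes the peripheral neuron filament peripherin, had counts of 479, 517, 532 and 439.9 at 3d and 308, 207, 104 and 204 at 7d. Its change was -1.35 ± 0.33, adjusted p = 0.024, but adjusted p = 0.094 without replicate 6. Sox2, a factor that Schwann cells express after injury, fell as well (1061, 651, 765 and 792 at 3d and 352, 271, 388 and 248 at 7d, log2 fold change -1.37 ± 0.39, adjusted p = 0.0462, and adjusted p = 0.18 without replicate 6).

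Of 21 measured genes of nerve injury and neurotrophic signalling, these 3 (Gap43, Prph and Sox2) were called lower and none higher. By sign alone 11 were lower and 10 higher, with a median log2 fold change of -0.59, so that the list went both ways. Its summed count was 12500 to 20989 at 3d and 21465 to 45077 at 7d, every 7d sum being above every 3d sum. Uchl1, a deubiquitinase abundant in neurons, had counts of 3767, 1145, 6758 and 7006 at 3d and 7506, 16673, 21712 and 14103 at 7d (log2 fold change 1.89 ± 0.64, adjusted p = 0.0963), and Sprr1a, which is induced both in injured neurons and in stratified epithelium, was also higher without overlap (2.82 ± 0.99, adjusted p = 0.106). The median moved to -0.27 without 3d replicate 8 and to -0.10 without 7d replicate 3. The Schwann cell and myelin genes summed to 15285 to 23805 at 7d, against 13002 to 14495 in the 3d replicates 6, 9 and 10 and 57689 in replicate 8. The 1 called gene of the 15 Schwann cell and myelin genes was Mal, a myelin and epithelial membrane proteolipid, which rose (475, 572, 1108 and 1059 at 3d and 1481, 6462, 5399 and 5798 at 7d, log2 fold change 2.47 ± 0.53, adjusted p = 0.0166).

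**Figure D3:**
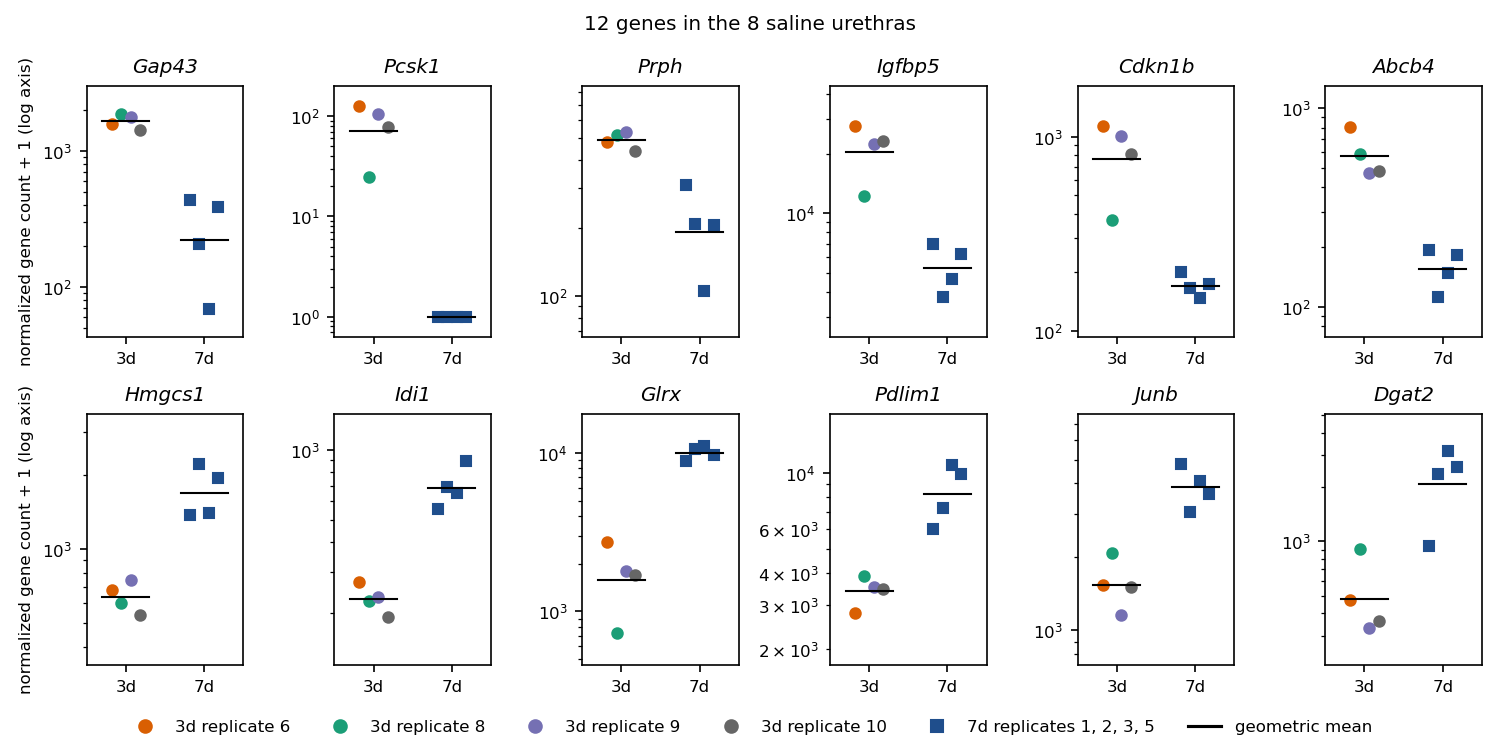
Normalized gene count plus 1 (log axis) of 12 genes in the 4 urethras at 3d (circles, coloured by replicate) and the 4 at 7d (squares), with the geometric mean of each group as a line. All 12 were called with all 8 samples, 11 of them (all but Prph) also without 3d replicate 6, and in none do the groups overlap.

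Several signalling and growth regulators fell in both fits. Igfbp5, a secreted protein that binds insulin-like growth factors, had counts of 27423, 12159, 22433 and 23103 at 3d and 7008, 3774, 4642 and 6188 at 7d, with a log2 fold change of -1.96 ± 0.29, adjusted p = 0.00248 and -1.81 ± 0.31, adjusted p = 0.0218 without replicate 6. Cdkn1b, which encodes the cell cycle inhibitor p27, had counts of 1136, 372, 1004 and 809 at 3d and 199.6, 164, 147 and 173 at 7d. Its 3d values spread about 3-fold, replicate 8 being low, and all of them stayed above the highest 7d value (log2 fold change -2.16 ± 0.35, adjusted p = 0.00592). Abcb4, a phospholipid transporter, had counts of 809, 592, 472 and 482 at 3d and 193, 112, 147 and 182 at 7d (-1.88 ± 0.28, adjusted p = 0.00248, and adjusted p = 0.0218 without replicate 6). Nmt2, an enzyme that attaches myristate to proteins, had counts of 819.5, 274, 497 and 672 at 3d and 149, 139, 114 and 113 at 7d (-2.02 ± 0.29, adjusted p = 0.00248). Tcf4 and Runx1t1, a basic helix-loop-helix factor and a transcriptional corepressor, fell by smaller amounts (log2 fold changes -1.48 ± 0.26, adjusted p = 0.00905, and -1.19 ± 0.25, adjusted p = 0.015). The remaining genes lower in both fits were Top1, the DNA topoisomerase I, with 4094, 706, 2319 and 3058 at 3d and 362, 538, 425 and 352 at 7d (adjusted p = 0.0493 without replicate 6), Senp1, Ccdc18, Wdr59 and 1 gene with only a clone name. Wdr59 had no read in any 7d library and was at least 3.05-fold lower.

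Among genes without overlap and with a group mean of at least 20, the rises and falls of greatest fold change were in genes with low counts at 1 of the times. Beside Upk2 and Cxcl1, described below, the rises included Sult1b1, a sulfotransferase (65.4, 3.92, 39.3 and 116 at 3d and 335, 704, 1105 and 1490.5 at 7d, adjusted p = 0.0219), and Wt1, a transcription factor of mesothelium, with no read at 3d and counts of 6.76, 64.7, 10.05 and 18.9 at 7d (adjusted p = 0.0327). The falls included Prox1, the lymphatic endothelial factor (103, 11.8, 50.03 and 45.7 at 3d and 0, 0, 0 and 9.43 at 7d, adjusted p = 0.0105), and Rb1, the retinoblastoma gene (124, 23.5, 39.3 and 73.9 at 3d and 3.38, 0, 6.70 and 0 at 7d, adjusted p = 0.0152). In Prox1 and Rb1 replicate 6 was the highest and replicate 8 the lowest at 3d. None of these 4 passed without replicate 6 (adjusted p = 0.0807, 0.117, 0.063 and 0.0846).

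Of the genes that rose in both fits, Glrx changed most. It encodes glutaredoxin, which reduces mixed disulphides with glutathione. Its counts were 2727, 733, 1790.5 and 1696 at 3d and 8882, 10634, 11028 and 9716 at 7d, and the 7d samples lay within a narrow range while replicate 8 was lowest at 3d (log2 fold change 2.67 ± 0.49, adjusted p = 0.00905, and 2.94 ± 0.52, adjusted p = 0.024 without replicate 6). Pdlim1, an adaptor of actin stress fibres, had counts of 2772, 3912, 3517 and 3469.8 at 3d and 6004, 7249, 10717 and 9867 at 7d (1.28 ± 0.21, adjusted p = 0.00592, and adjusted p = 0.041 without replicate 6). Junb, an immediate early transcription factor, had counts of 1529, 2073, 1154 and 1509.7 at 3d and 4809.8, 3059, 4099 and 3609.9 at 7d (1.32 ± 0.25, adjusted p = 0.00933, and adjusted p = 0.0493 without replicate 6). The phosphate transporter Slc20a1 (1.20), the BH3-only protein gene Pmaip1 (1.87), Ankrd9 (1.91) and Pigy (1.26) rose as well, with the log2 fold changes given. Dgat2, the last of the 10 beside the sterol genes Hmgcs1 and Idi1, makes triglyceride and is described with the adipocyte genes. Among 17 immediate early genes Junb was the only one to pass, the median being 0.64. Ier3 was next, higher without overlap but within the fold threshold (0.90 ± 0.24, adjusted p = 0.0381).

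Enzymes of cholesterol synthesis rose, among them Hmgcs1 and Idi1. The list of 23 genes of sterol synthesis and uptake was drawn up after their values had been seen, and its counts describe it only. Of the 23, 5 passed the test, all higher at 7d, beside 0.668% of all genes called higher. Without overlap 7 were higher, beside 5.11% of all genes tested, and 19 of 23 were higher by sign. The median log2 fold change was 0.73 (0.86 without replicate 6, and 0.75 without replicate 8). Hmgcs1, the synthase that makes HMG-CoA, had counts of 682, 599.7, 747 and 538 at 3d and 1373, 2218, 1397 and 1940.2 at 7d. No 3d sample came near the lowest 7d sample (log2 fold change 1.41 ± 0.23, adjusted p = 0.00592, and 1.44 ± 0.25, adjusted p = 0.024 without replicate 6). Idi1, which isomerizes isopentenyl diphosphate, had counts of 269, 223, 232 and 190 at 3d and 555, 689.5, 653 and 889.9 at 7d (1.59 ± 0.31, adjusted p = 0.0125, and adjusted p = 0.0493 without replicate 6). Msmo1 (1.32), Fdft1 (1.24) and Hsd17b7 (1.98), all later steps of the pathway, also rose on the log2 scale, Hsd17b7 not passing without replicate 8 (adjusted p = 0.0932). With scaling to the same total neither Fdft1 nor Hsd17b7 passed (limma, adjusted p = 0.0662 and 0.062). Fdft1 was also lost with quantile normalization (adjusted p = 0.0608). In Hmgcs1, Idi1, Sqle, Fdft1, Msmo1 and Fdps the 7d replicates 2 and 5 were the highest of the 7d samples. The same samples had the largest sums of urothelial and adipocyte genes, whose part in the result was not tested. Sqle, squalene epoxidase, had counts of 227, 153, 289 and 187 at 3d and 379, 816, 412 and 692 at 7d and a log2 fold change of 1.38 ± 0.40 that did not pass, and Fdps had counts of 358, 372, 339.5 and 348 at 3d and 436, 953, 596 and 685 at 7d (0.86 ± 0.34, adjusted p = 0.153).

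The sequence before the start of Hmgcs1 and of Idi1 is shown because these are the sterol genes that passed both fits. Each run is the 250 bases before the start in RefSeq's GRCr8 annotation, in the gene's own direction, with each CCAAT pentamer, on either strand (CCAAT or ATTGG), in capitals. CCAAT is the core motif of the factor NF-Y, which is known at promoters of sterol genes beside the sterol regulatory element binding proteins.
Hmgcs1, chr2:53382054-53382303, plus strand: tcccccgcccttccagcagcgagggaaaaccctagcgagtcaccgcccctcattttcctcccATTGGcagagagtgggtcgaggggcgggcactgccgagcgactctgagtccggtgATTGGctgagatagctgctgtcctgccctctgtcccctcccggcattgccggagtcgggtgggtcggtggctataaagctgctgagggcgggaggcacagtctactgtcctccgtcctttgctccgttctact
Idi1, chr17:66547525-66547774, minus strand: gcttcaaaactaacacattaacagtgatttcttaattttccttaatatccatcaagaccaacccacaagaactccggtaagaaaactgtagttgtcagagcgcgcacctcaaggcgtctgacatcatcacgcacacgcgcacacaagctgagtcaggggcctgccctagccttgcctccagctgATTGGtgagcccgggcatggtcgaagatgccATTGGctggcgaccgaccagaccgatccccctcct
Each holds 2 pentamers, both as ATTGG. Promoters of 17 of the 23 sterol genes were matched by symbol, and 14 of them (82.4%) held at least 1 pentamer in this window, against 34.02% of all 33469 promoters of the same length. Of the 5 called genes, 4 had a promoter in the table and all 4 held the pentamer. A match is a run of letters and not a known site of binding, and the genes were chosen for their values.

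Genes of the respiratory chain had small positive changes. Of 25 nuclear-encoded subunits measured, all 25 had a positive fitted change (0.12 to 2.21, median 0.55, and 0.48 without replicate 6). Without overlap 12 were higher, beside 5.11% of all genes tested, but none passed the test. Ndufa1 alone had a log2 fold change beyond 1 and its adjusted p was 0.249, while Atp5f1a, Uqcrfs1 and Cox5a had an adjusted p under 0.05 and a change within the fold threshold. Their summed counts were 95342, 110777, 99866 and 121059 at 3d and 153165, 145368, 134593 and 168667 at 7d, every 7d sample being above every 3d sample. Atp5f1a, the alpha subunit of the ATP synthase, had counts of 3374, 4221, 3892 and 4469 at 3d and 6758, 6462, 5683 and 8188 at 7d (0.76 ± 0.18, adjusted p = 0.0204), and Uqcrfs1, the Rieske protein of complex III, had counts of 1825, 3167, 2323 and 2875 at 3d and 5425, 4062, 4679 and 5676 at 7d (0.98 ± 0.24, adjusted p = 0.0266). The 13 mitochondrially encoded mRNAs did not follow, with a median of 0.10 and none called. Among 19 genes of antioxidant defence 16 were higher (median 0.43), 3 of them without overlap, and 2 passed the test. Nqo1, a quinone reductase, had counts of 1129, 259, 1051 and 901 at 3d and 4428, 2947, 12167 and 2116 at 7d (2.56 ± 0.55, adjusted p = 0.0166) and the glutathione transferase Gstm1 had 1515, 882, 2073 and 1619 at 3d and 3633, 7144, 7170.4 and 8691 at 7d (2.12 ± 0.44, adjusted p = 0.0145). Their adjusted p without replicate 6 was 0.0516 and 0.0672.

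**Figure D4:**
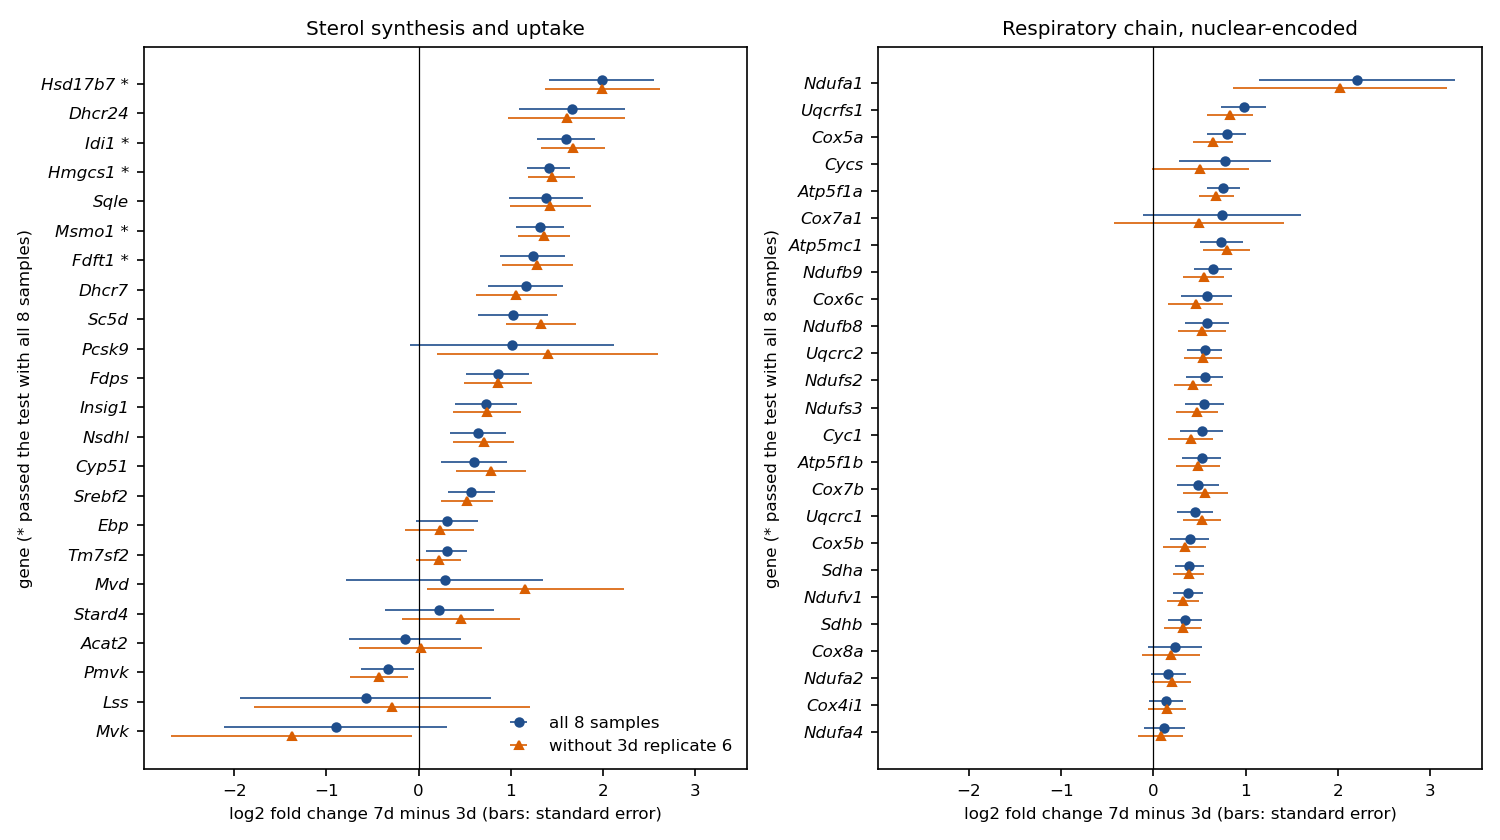
Log2 fold change (7d minus 3d) with its standard error for 23 genes of sterol synthesis and uptake (left) and 25 nuclear-encoded respiratory chain genes (right), with all 8 samples (circles) and without 3d replicate 6 (triangles). The 5 sterol genes marked with an asterisk passed the test, and all 25 respiratory chain values lie above 0.

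The urothelial genes Upk2 and Krt7 rose, and the 3d library of replicate 8 was poor in them. Upk2, a uroplakin of the superficial umbrella cells, had counts of 17.2, 15.7, 182 and 77.4 at 3d and 284, 11371, 2783 and 8166 at 7d, and Krt7, a keratin of simple and transitional epithelium, had 1880, 118, 1769 and 1995 at 3d and 5259.6, 17542, 10121 and 16968 at 7d. Both rose (log2 fold changes 6.0 ± 1.1, adjusted p = 0.0105, and 3.57 ± 0.77, adjusted p = 0.0166), and missed the threshold without replicate 6 (adjusted p = 0.0607 and adjusted p = 0.0516). Leaving out replicate 8 instead kept both calls, with log2 fold changes of 5.52 and 2.58. They were the 2 called genes of 15 urothelial markers, beside 0.668% of all genes called higher. Of the 15, 14 were higher and 4 were higher without overlap, beside 5.11% of all genes tested. The median was 2.10, and it was 1.30 without replicate 8 and 0.97 without replicates 6 and 8. Upk3a had counts of 3099, 90.2, 5600.1 and 4445 at 3d and 6717, 17357, 9893 and 12594 at 7d and did not pass (adjusted p = 0.116). The summed count of the list did not overlap between the times (2469 to 27750 at 3d, 44685 to 87949 at 7d). Genes of stratified squamous epithelium gave no call in 20. Krt5, a basal cell keratin of both epithelia, had counts of 4379.9, 541, 3452 and 3659.8 at 3d and 5307, 9859.8, 5955 and 7342 at 7d (1.56 ± 0.68, adjusted p = 0.197).

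Adipocyte genes rose as well, and their sums differed widely among libraries of 1 group. Of 18 adipocyte genes 7 rose, beside 0.668% of all genes called higher, and 17 were higher. Without replicate 6 only Dgat2 passed, and without replicates 6 and 8 together 7 of the 18 passed. The median was 2.06 (1.89 without replicate 6, and 2.59 without replicate 8). Of the 7 called with all 8 samples, only 2 rose without overlap, Aqp7 and Dgat2. Dgat2 had counts of 472, 909, 329 and 359 at 3d and 940.3, 2355, 3185 and 2575 at 7d (2.12 ± 0.39, adjusted p = 0.00965, and adjusted p = 0.0493 without replicate 6). Fabp4, the fatty acid binding protein of fat cells, had counts of 730, 4743, 893 and 1316 at 3d and 2222, 18597, 22077 and 20279 at 7d, replicate 8 at 3d lying above the lowest 7d sample (3.04 ± 0.85, adjusted p = 0.0448, and adjusted p = 0.179 without replicate 6). Cidec (5.72), Lep (5.42), Pck1 (5.04), Aqp7 (4.18) and Lpl (1.74) had the log2 fold changes given. The sum of the list was 7803 to 41595 at 3d and 25696 to 85835 at 7d. The part of these unequal sums in the 7 calls was not tested.

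Contractile genes of smooth muscle rose in part. Acta2, the smooth muscle alpha-actin, had counts of 29619, 9536, 53628 and 40529 at 3d and 71544, 131670, 98182 and 144662 at 7d and Smtn, smoothelin, had 933, 604, 1851 and 1650.4 at 3d and 2523, 3430.2, 2127 and 3314 at 7d. Both rose (log2 fold changes 1.94 ± 0.43, adjusted p = 0.0186, and 1.29 ± 0.33, adjusted p = 0.0324), although neither passed without replicate 6 (adjusted p = 0.0807 and adjusted p = 0.141). Leaving out replicate 8, which was lowest for both, gave Acta2 1.42 (adjusted p = 0.0165) and Smtn 0.98 (adjusted p = 0.0554). The other 16 genes of the list did not pass. Myh11, the smooth muscle myosin, had counts of 26803, 3387, 49901 and 35796 at 3d and 31243, 52764, 34355 and 50787 at 7d, with overlapping groups (1.04 ± 0.54, adjusted p = 0.296). The median of the 18 genes was 0.90, and it was 0.21 without replicate 8. Small heat shock proteins that are abundant in muscle rose with them: Hspb1 had counts of 6322, 6142, 10085 and 10089 at 3d and 16077, 18336, 11923 and 25137 at 7d (1.12 ± 0.24, adjusted p = 0.0166) and Hspb7 had 806, 780, 1194 and 1439 at 3d and 4685, 1974, 3657 and 2751 at 7d (1.61 ± 0.29, adjusted p = 0.00905), with adjusted p = 0.0876 and 0.0516 without replicate 6. Without replicate 8 the change of Hspb1 came to just under the fold threshold. They were the 2 called of 17 heat shock and unfolded protein genes.

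Genes of striated muscle were not shown to change. None of 25 genes of the mature fibre passed (median 0.58, 19 of 25 higher, and 0 without overlap in either direction), and their sums were 119018 to 413601 at 3d and 198661 to 542026 at 7d. None of 16 genes of denervation and the neuromuscular junction passed (median 0.34). Among 18 genes of myogenic regeneration the median was 0.06, and 1 fell, the cell adhesion molecule gene Ncam1, which denervated fibres and unmyelinated nerve also express (2317, 776, 1605 and 1211 at 3d and 744, 495, 385 and 406 at 7d, log2 fold change -1.48 ± 0.39, adjusted p = 0.0365, and adjusted p = 0.174 without replicate 6).

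Most matrix genes had lower values at 7d, but none passed the test. Of 27 genes of fibrillar matrix and its enzymes 25 had a negative fitted change, and the median was -0.75 (-0.53 without replicate 6, and -0.86 without replicate 8). Without overlap 6 were lower, beside 5.87% of all genes tested, namely Col1a1, Col5a2, Cthrc1, Lum, Has2 and Sparc. The 27 genes summed to 569260, 694166, 624779 and 587847 at 3d and to 280063, 376821, 401444 and 293082 at 7d. Every 3d sum was above every 7d sum. Col1a1, the chain of type I collagen, had counts of 208056, 319269, 264192 and 225180 at 3d and 82862, 126298, 170652 and 87979.5 at 7d (-1.16 ± 0.68, adjusted p = 0.355). Sparc, a collagen-binding matricellular protein, had counts of 120888, 84084, 93501 and 104020 at 3d and 36953, 49339, 56898 and 39787 at 7d (-1.15 ± 0.46, adjusted p = 0.165). The standard errors of these genes came from all 6 groups, and in the saline samples alone the adjusted p of Col1a1 was 0.143 and that of Sparc 0.0933. Mmp14, the membrane-bound collagenase, was the 1 called of 17 proteases and inhibitors, and it fell (16201, 6444, 7616 and 7365 at 3d and 1921, 2392, 3701 and 1176 at 7d, log2 fold change -2.05 ± 0.49, adjusted p = 0.0234, and adjusted p = 0.124 without replicate 6, its highest sample).

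Of the vascular genes, Kdr fell. Of 19 endothelial and angiogenic genes 15 were lower (median -0.39), 3 without overlap (Vegfa, Cd34 and Kdr), beside 5.87% of all genes tested. Vegfa and Cd34 were not called. Vegfa had an adjusted p of 0.386 to 0.590 with all samples or 1 left out, and Cd34 was highest by far in 3d replicate 6 (771, next 32.2). Kdr encodes VEGF receptor 2, and its counts were 1054, 1254, 989.9 and 1101 at 3d and 582, 463, 656 and 252 at 7d, with the 3d samples close together (-1.25 ± 0.27, adjusted p = 0.0154, and adjusted p = 0.0694 without replicate 6). Anpep, an aminopeptidase of pericytes and myeloid cells, was the 1 of 9 pericyte genes to fall (2145, 5103, 2187 and 2386 at 3d and 1715, 1175, 891 and 1223 at 7d, log2 fold change -1.17 ± 0.30, adjusted p = 0.0316). The call was lost without replicate 6 (adjusted p = 0.086) and without replicate 8, its highest sample (-0.88, adjusted p = 0.0528). Of 16 genes of TGF-beta signalling 13 were lower, and Inhba, the activin A subunit, was called with 719.7, 3.92, 168 and 172 at 3d and 3.38, 4.98, 3.35 and 3.14 at 7d. Replicate 8 lay within the 7d range for Inhba, so that the groups overlapped.

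Inflammatory genes went both ways. Cxcl1, a neutrophil-attracting chemokine, had counts of 34.4, 27.4, 50.03 and 109 at 3d and 5246, 271, 1668 and 2846 at 7d, the lowest 7d sample lying above the highest at 3d (5.05 ± 0.95, adjusted p = 0.0105, and adjusted p = 0.0516 without replicate 6). It was the 1 called of 16 cytokines and chemokines, of which 5 were higher without overlap, beside 5.11% of all genes tested. Il1b had counts of 592, 290.1, 218 and 183 at 3d and 494, 831, 2207 and 1022 at 7d and did not pass (1.77 ± 0.60, adjusted p = 0.0968), nor did Ccl20 (24.1, 0, 14.3 and 21.1 at 3d and 176, 44.8, 938 and 563 at 7d, adjusted p = 0.087). No neutrophil gene of 12 passed (median 0.47). Among 21 macrophage and complement genes the median was -0.51 and 1 fell, Trem2, a receptor of lipid-handling macrophages, with 420.1, 694, 393 and 542 at 3d and 189, 172, 46.9 and 18.9 at 7d (log2 fold change -2.74 ± 0.71, adjusted p = 0.0325, and adjusted p = 0.106 without replicate 6). Of 11 B and T cell genes, Cd4, which rat macrophages express too, fell (-3.42, adjusted p = 0.0498). None of 15 interferon-stimulated genes and none of 11 mast cell genes passed.

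Most genes that were lower at 7d had 1 pattern at 3d. Of the 440 genes called lower, replicate 6 was the highest of the 3d samples in 380 (86.4%, against 32.6% of all genes tested) and replicate 8 the lowest in 363 (82.5%, against 36.4%). Among the 31 measured genes of DNA methylation and histone modification replicate 6 was highest in 21, replicate 8 lowest in 23, and both held in 18. All 31 had negative fitted changes (median -1.04, -0.81 without replicate 6, and -1.40 without replicate 8). Of them 6 fell and 7 were lower without overlap, beside 2.8% and 5.87% of all genes tested. Kmt2c, a histone H3 lysine 4 methyltransferase, had counts of 1047, 74.5, 332 and 429 at 3d and 37.2, 34.8, 33.5 and 22.01 at 7d (-3.34 ± 0.61, adjusted p = 0.00905, and adjusted p = 0.0516 without replicate 6). Tet3, which oxidizes methylcytosine, had counts of 207, 19.6, 64.3 and 49.3 at 3d and 13.5, 2.49, 3.35 and 6.29 at 7d (-3.27 ± 0.71, adjusted p = 0.0167). Kdm6a, a histone demethylase, had a narrower spread (603, 294, 339.5 and 377 at 3d and 118, 105, 184 and 154 at 7d, -1.50 ± 0.38, adjusted p = 0.031). Hdac1, a histone deacetylase, had counts of 1983, 368, 772 and 1017 at 3d and 379, 413, 358 and 302 at 7d, and here replicate 8 lay within the 7d range (-1.27 ± 0.35, adjusted p = 0.0397). Kmt2a (-2.23) and Nsd1 (-1.52) completed the 6. None of the 6 passed without replicate 6. Without replicate 8, 19 of the 31 passed, all of them lower at 7d, where 7.12% of all genes tested were called lower. Without replicates 6 and 8 together, 10 of the 31 passed, all of them lower at 7d (median -1.29). In that fit 521 of the 15726 genes tested were called lower. Dnmt3a (344, 192, 189 and 204 at 3d and 108, 107, 53.6 and 164 at 7d, -1.15 ± 0.42, adjusted p = 0.115), Tet2 (-1.57 ± 0.45, adjusted p = 0.0505) and Kat6a (-1.66 ± 0.54, adjusted p = 0.0817) did not pass.

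Of 19 genes of RNA splicing and elongation 3 fell, Ddx17 (-2.31), Srrm2 (-1.48) and Luc7l3 (-1.04), and the median was -0.54. None of the 3 passed without replicate 6 (adjusted p = 0.0516, 0.157 and 0.121). Ddx17, an RNA helicase, had counts of 3502, 784, 1529.6 and 2139.6 at 3d and 443, 478, 238 and 289 at 7d. In all 3 genes replicate 6 was the highest and replicate 8 the lowest of the 3d samples. Mki67, the proliferation antigen, was the 1 called of 25 cell cycle genes (912, 188, 57.2 and 109 at 3d and 13.5, 49.8, 10.05 and 37.7 at 7d, -2.94 ± 0.85, adjusted p = 0.0499), and replicate 6 was its highest sample by far. The call was lost without replicate 6 (adjusted p = 0.238), with quantile normalization (adjusted p = 0.0813) and with scaling to the same total (adjusted p = 0.0538). The median of the 25 genes was -0.71, and it was 0.48 with 19 of 25 higher without replicates 6 and 8. The cell cycle genes summed to 18938 and 20261 in replicates 6 and 8 and to 3985 and 5652 in replicates 9 and 10, against 4218 to 9116 at 7d. No gene passed among 35 cytosolic ribosomal proteins (median -0.20), 9 erythroid genes (median 0.89, and 0.07 without replicate 6), 15 genes of glycolysis and hypoxia (median 0.37) or 15 genes of steroid response and the clock (median 0.63).

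The same 2 times were set beside each other in the cell-treated urethras, which share no sample with the saline comparison. Between 3d and 7d, 3486 genes differed in MABsallo urethras (22.2% of the genes tested) and 2380 in MABsallo-VEGF urethras (15.1%). Of the 545 saline calls, 442 (81.1%, or 12.7% of the MABsallo calls) were called in the same direction in MABsallo urethras and 408 (74.9%, or 17.1% of the MABsallo-VEGF calls) in MABsallo-VEGF urethras, and none in the opposite direction in either. Of the 23 genes that passed without replicate 6, 20 and 17 did so. The 3 comparisons share 1 estimate of the spread. A larger number of calls in one treatment does not show that a change differed from that in saline, and the difference of the changes was tested for each gene. No gene passed in either treatment (limma, 2075 and 1289 genes at an unadjusted p below 0.05, edgeR 0 and 0, DESeq2 77 and 2), whereas limma with sample quality weights called 316 and 378. Without 3d replicate 6, 100 genes (0.636%) passed for MABsallo against saline, 10 (0.0636%) with the higher and 90 (0.572%) with the lower change in MABsallo urethras (2783 at an unadjusted p below 0.05, edgeR 15, DESeq2 537), and 0 for MABsallo-VEGF (1984 at an unadjusted p below 0.05, edgeR 1, DESeq2 254). With sample quality weights these were 739 and 797. Leaving out replicate 8 as well gave 1 gene for MABsallo.

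The changes of single genes are given side by side. Gap43 changed by -2.91 ± 0.44 in saline, -2.06 ± 0.44 in MABsallo and -2.21 ± 0.44 in MABsallo-VEGF urethras on the log2 scale, and neither difference passed (adjusted p = 0.568 and 0.809). Igfbp5 changed by -1.96 ± 0.29, -2.03 ± 0.29 and -1.52 ± 0.29. Hmgcs1 rose by 1.41 ± 0.23 in saline, 2.40 ± 0.23 in MABsallo and 2.44 ± 0.23 in MABsallo-VEGF urethras, a difference from saline with an unadjusted p of 0.00606 and 0.00437 and an adjusted p of 0.237 and 0.513. Of the 23 sterol genes, 13 and 10 rose in the MABsallo and MABsallo-VEGF urethras (background 6.17% and 2.29% of all genes higher), with medians of 1.40 and 1.10 beside 0.73 in saline. Of the 31 chromatin genes, 19 and 22 fell (background 16.0% and 12.8% of all genes lower), with medians of -1.21 and -1.27 beside -1.04. Of the 18 adipocyte genes, 12 and 1 rose in the MABsallo and MABsallo-VEGF urethras (background 6.17% and 2.29% of all genes higher). Their medians were 2.89 and 0.59 beside 2.06 in saline. The part of the MABsallo-VEGF samples labelled recovery in these values was not tested. Cxcl1 changed by 4.30 ± 0.95 in MABsallo and by 0.55 ± 0.95 in MABsallo-VEGF urethras, and its difference from saline had an adjusted p of 0.845 and 0.510.

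**Figure D5:**
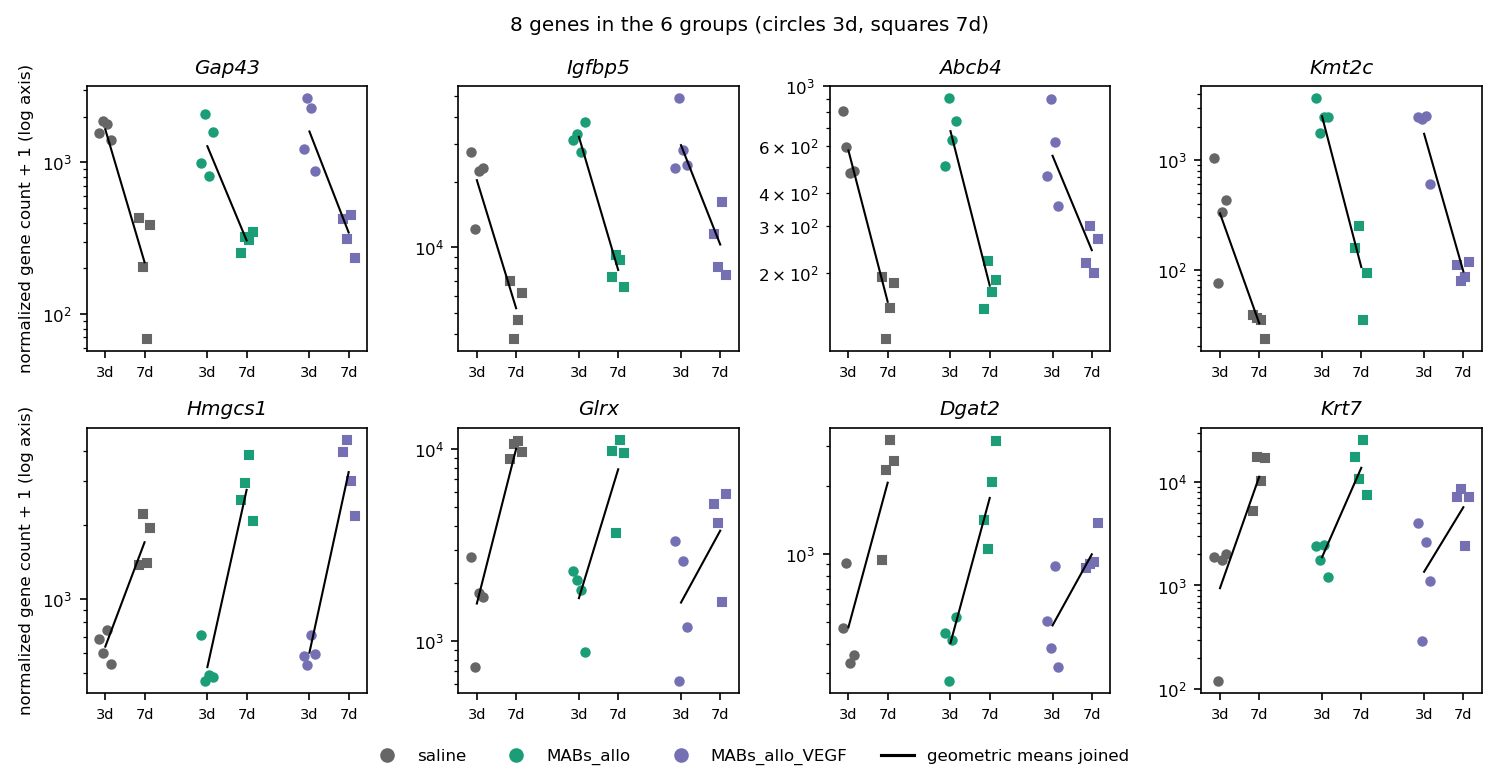
Normalized gene count plus 1 (log axis) of 8 genes in all 6 groups of 4 urethras, at 3d (circles) and 7d (squares) after SVD with saline, MABsallo (MABs_allo) or MABsallo-VEGF (MABs_allo_VEGF). Black lines join the geometric means. The direction from 3d to 7d is the same in the 3 treatments for each of the 8 genes.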

How the data were processed

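Urethral RNA was made into 3' mRNA-seq libraries, in which a read marks the end of a transcript, so that counts are not divided by gene length. Per the study's methods, reads were aligned to Rnor6.0 with HISAT2 and counted per gene with HTSeq. The authors deposited normalized gene counts (unit: signal), that is, read counts divided by a DESeq2 size factor. All values were whole multiples of the value of 1 read in their library (100% within 1e-06), which gave back the reads: 2170695 to 10166052 per library in the series. Genes and gene lists were chosen with earlier results of these data known.

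One model was fitted with limma 3.58.1 (trend) to log2(normalized count + 1) of all 24 samples in 6 groups, so that a fold change understates that of low genes. Genes had a mean of at least 2 over the saline samples, and p-values were adjusted by Benjamini-Hochberg over all 15726. Calls required a log2 fold change above 1 or below -1 and an adjusted p under 0.05. Changes in cell-treated urethras minus the change in saline were contrasts of the same model. Fits on recovered reads used edgeR 4.0.16 (quasi-likelihood) and DESeq2 1.42.0. R was 4.3.3. The fits were tested on simulated data with the same dispersion for all genes. No outlying library was simulated, so this test does not cover libraries like the outlying ones here. For single values 4 samples against 4 were compared by exact permutation tests. Where all libraries of a group had no read, the fold is a bound against 3 reads per library. The tissue replicates are taken as separate rats from the stated n of 4, although the labels do not say so, and otherwise p-values measure technical spread only. Within a group, libraries varied beyond counting noise (chi-square per degree of freedom 14.4 to 118.9).

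Named genes were the 8 largest rises and falls without overlap, those called without 3d replicate 6, the first 2 members of each list with up to 3 called members, and genes the study shows by name. Others (Runx1t1, Senp1, the sterol list and further list members) were named after their values were seen. Gene symbols came from the table, in which 2672 rows repeat a symbol, and promoters from RefSeq (GRCr8), matched by symbol. Some genes and 1 gene list are not reported here. No reads, genome or annotation of the authors' build were used here.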

Additional observations from a re-analysis of the deposited data

Results flagged for a closer look

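Single samples lay far from the other 3 of their group in 21 of 202 groups of 4 values (10.4%). About 1 in 20 would hold for independent, normally distributed values. The counts are skewed, genes vary together and many were named for their values in these samples, so the 2 shares cannot be compared. Replicate 8 at 3d accounted for 9 of them. It had the lowest count of Krt7 (117.6, next 1769) and the highest of Fabp4 (4743, next 1316), Aqp7 (39.2, next 3.57), Cidec (290.1, next 20.7), Pck1 (619, next 17.6), Lep (74.5, next 3.44) and Anpep (5103, next 2386). It also had the highest sum of Schwann cell and myelin genes (57689) and the highest mitochondrial share (17.2% of reads). Replicate 6 at 3d had the highest count of Mmp14 (16201, next 7616), Mki67 (912, next 188), Dnmt3a (344, next 204), Cd34 (771, next 32.2) and Col5a2 (2293, next 1469). Replicate 10 at 3d had the lowest count of Msmo1 (398, next 593). At 7d, replicate 2 was lowest for Ier3 (2838, next 4236) and highest for Inhba (4.98, next 3.38), and replicate 5 was lowest for Tet2 (119, next 184) and highest for Pigy (774, next 639.7), Senp1 (3.14, the others 0) and Prox1 (9.43, the others 0). In the saline libraries 1 read stood for 2.49 to 3.92 normalized counts. Inhba, Senp1 and Prox1 at 7d thus rested on a few reads at most, as did the next values of Aqp7 and Lep at 3d.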

How the results depend on the processing

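No paired analysis was possible because a urethra taken for RNA gives 1 time only. The saline groups also share no replicate number (6, 8, 9 and 10 at 3d, and 1, 2, 3 and 5 at 7d). The 545 calls with all samples became 1842 with sample quality weights, 1007 with edgeR and 1395 with DESeq2 on recovered reads, and 0 in the saline samples alone with either limma or edgeR. They ranged from 23 to 1303 when 1 sample was left out, the lowest without 3d replicate 6 (40 without 7d replicate 5, 156 without 3d replicate 10, 193 without 7d replicate 3, 200 without 3d replicate 9) and the highest without 3d replicate 8. The direction of all the 545 tested held in each, which is likely for genes called for a large change in these same samples. The 23 calls without 3d replicate 6 became 10 with a pseudocount of 5, 7 with no filter and 41 with a filter of 10. They became 4 with scaling to the same total, 1570 with weights, 236 with edgeR and 603 with DESeq2. In the saline samples alone they became 0 (limma and edgeR). They ranged from 0 to 594 when a further sample was left out, the lowest without 3d replicate 9 or 10 and the highest without 3d replicate 8. The 0 genes whose change differed between MABsallo and saline urethras ranged from 0 to 100 when 1 sample was left out (100 without 3d replicate 6). With 2 alternatives chosen after seeing the data they became 316 (sample quality weights) and 77 (DESeq2), and the 0 genes for MABsallo-VEGF became 378 and 2. The cause of these moves was not tested. Quantile normalization moved the median change of all genes from -0.04 to 0.06.

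Of the 64 named genes that were called, 22 stayed called without 3d replicate 6, 60 without 3d replicate 8, 38 without 3d replicate 9 and 40 without 3d replicate 10, and 56, 45, 38 and 23 without 7d replicates 1, 2, 3 and 5. With quantile normalization 60 stayed called, and with scaling to the same total 58. None of the 90 genes followed in this way changed its direction under these alternatives. Many were named because they were called, and some because they kept their sign without 3d replicate 6, so that this was partly fixed by the choice. List medians moved by more than the list's own replicate spread in 13 of 396 cases, in the lists of cytokines, endothelial, pericyte, nerve injury and steroid response genes. That spread was 0.06 for endothelial genes, but 1.01 for smooth muscle and 1.29 for erythroid genes. A list with outlying libraries could thus shift far and not be counted. Smooth muscle went from 0.90 to 0.21 without 3d replicate 8, and erythroid genes from 0.89 to 0.07 without 3d replicate 6. With 2170695 or more reads per library, a gene with few reads at both times is not shown to be unchanged.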
